A study of Glycine max with 26 samples.

Results

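The bZIP transcription factors of the developing soybean seed were followed over 2 days in constant light. They were taken as every probe set whose single gene symbol in the platform annotation is BZIP with a number, with or without a final letter, as in BZIP53B. This gave 44 of the 16383 probe sets of the array table, for 35 genes. Of these, 36 probe sets for 30 genes averaged above 4 in log2 signal and could be tested, among 11481 such probe sets in the table. The other 8 lay near the lowest signal of the arrays.

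Plants of the cultivar Williams 82 were raised in cycles of 12 h light and 12 h dark at 25 °C and then kept in constant light of 350 µmol m-2 s-1. Whole seeds with their coats, 5 weeks after flowering, were taken at intervals of 4 h, beginning 24 h and ending 72 h into constant light. The sampling at 24 h was subjective dawn, and subjective dusk followed at 36 h and again at 60 h. Each of the 13 times had 2 replicates, each a pool of 8 seeds from 3 plants, and each of the 26 samples was hybridised to a single-colour array. All groups share the cultivar, the entrainment and the constant light. No dark-grown or clock-mutant group was part of the design, and the groups differ in their labels only by time. Whether both pools of a time shared plants is not stated. The p-values reflect only the spread between these samples, which may be technical.

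bZIP factors carry a basic region that contacts DNA, followed by a leucine zipper through which they pair. In plants they bind elements with an ACGT core, such as the G-box and the abscisic acid response element. In Arabidopsis, ABI5 and its relatives act in abscisic acid signalling in the maturing seed, bZIP53 with its partners activates seed maturation genes, HY5 acts in light signalling, and TGA factors act in defence. Most soybean members here are known from the annotation by number only, so a role is given below only where one is known.

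Values are on the log2 scale as the authors normalized them, and array medians lay between 6.08 and 6.47. The lowest log2 signal lay between 1.54 and 2.04 on 13 arrays and between 2.40 and 3.02 on the other 13, called low floor and high floor arrays here, with 1 of either kind at every time. Replicates of a time correlated at r of 0.977 to 0.994 over the tested probe sets. The labelled tissue was checked with seed genes. All 34 probe sets of maturation proteins were above the filter, with means of 7.42 to 15.83. Of 11 glycinin and conglycinin probe sets, 10 were above it, with means up to 16.24, and that of CG-1 was below it at 2.30. Of 12 probe sets carrying nodulin names, 8 lay below the filter. The 4 above it were those of SS and UR2, a sucrose synthase and a uricase, and of NOD33 and N-26. NOD33 had a mean of 10.18 and N-26 one of 7.59. Precision is limited by having 2 arrays a time. In whole seeds, fewer cells of a type and less RNA per cell cannot be told apart.

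None of the 36 tested members passed the test for a 24 h rhythm or that for a difference between times. None passed for drift or for a difference between cycles. A probe set outside the members, with the symbols BZIP76 and SOYSTGA together, did pass the rhythm test and is described at the end. BZIP95 passed a contrast of night with day over more times, given below. Over the 36 tested probe sets, the median SD over the 26 arrays was 0.22 log2, from 0.12 for BZIP132 to 0.42 for one probe set of BZIP94. The median over all 11481 probe sets was 0.21. The 13 time means of a member spanned a median of 1.43-fold, from 1.22-fold to 2.02-fold, beside a median of 1.40-fold over all tested probe sets. The median gap between the 2 replicates of a time was 0.22 log2 over members and 0.20 over all. The spread between pools was therefore of the size of many of the changes described below.

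The 4 probe sets with the strongest signals come first. Signals of different probe sets are not compared with each other, since probes differ in affinity. BZIP132, which raised salt tolerance in transgenic Arabidopsis, ran from 11.86 over a median of 12.14 to 12.36 in log2 signal. Its time means lay between 11.97 at 48 h and 12.29 at 36 h, and its 2 replicates differed by a median of 0.12. BZIP53B, whose symbol carries the number of the Arabidopsis maturation regulator bZIP53, ran from 11.06 over 11.43 to 11.86, lowest at 64 h with a time mean of 11.24 and highest at 56 h with 11.73. The annotation gives no orthology for it, and its probe set ID marks it as shared between transcripts, as do those of 4 other tested members. BZIP124 ran from 10.29 over 10.80 to 11.49 and BZIP125 from 10.19 over 10.51 to 11.45. For both, the highest array was 52h replicate 2. At that time the replicates of BZIP125 lay 0.92 apart, at 10.53 and 11.45, and those of BZIP124 0.78 apart. Without 52h replicate 2 the members' count of calls stayed 0 in every test.

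The members with the largest SD were BZIP94, BZIP85 and BZIP72, and their replicates lay far apart at single times. The 2 probe sets of BZIP94 had SDs of 0.42 and 0.39. The first ran from 4.18 over 4.67 to 5.70, with 5.66 and 4.61 at 36 h in the 2 replicates. The second ran from 4.36 over 4.96 to 5.77. BZIP85 had an SD of 0.39 and ran from 5.01 over 5.90 to 6.67, with 6.67 and 5.87 in the replicates at 24 h. BZIP72, with an SD of 0.34, had a mean of 4.40 and was higher on the array with the higher lowest signal at all 13 times, by 0.53 on average. It was the only tested member with the same sign at all 13 times. BZIP89, just inside the filter with a mean of 4.38, ran from 3.86 over 4.41 to 4.81. With the array floor, low or high, as a block, 0 of 36 members were called in each of the 6 limma tests.

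Of the other tested members, BZIP98 ran from 8.70 over 8.88 to 9.18 and BZIP113 from 6.47 over 6.76 to 7.20. BZIP109 ran from 5.97 over 6.33 to 6.72. BZIP126 ran from 8.45 over 9.16 to 9.72, with an SD of 0.33. BZIP126 had its lowest time mean, 8.75, at 64 h and its highest, 9.54, at the next sampling. BZIP130 was higher on the array with the higher lowest signal at 12 of 13 times, by 0.24 on average.

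The 8 probe sets below the filter were those of BZIP82, BZIP42, BZIP50, BZIP105 and BZIP36, 2 of BZIP108 and 1 of BZIP70. BZIP82 was never more than 0.01 above the lowest signal of its array, and BZIP42 at most 0.24 and BZIP50 at most 0.43. BZIP36, listed with the synonym SOYSTF1A, a soybean relative of the light-signalling factor HY5, came nearest to the filter, with a mean of 2.94. It ran from 2.21 over 3.08 to 3.36 and stood a median of 0.60 above the lowest signal. Another probe set, with the symbols BZIP36 and STF2 together and so not a member, had a mean of 7.17. BZIP108 and BZIP70 each also had a probe set well above the filter, with means of 7.66 and 9.87, so that a low probe set does not show that its gene was silent.

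**Figure D1:**
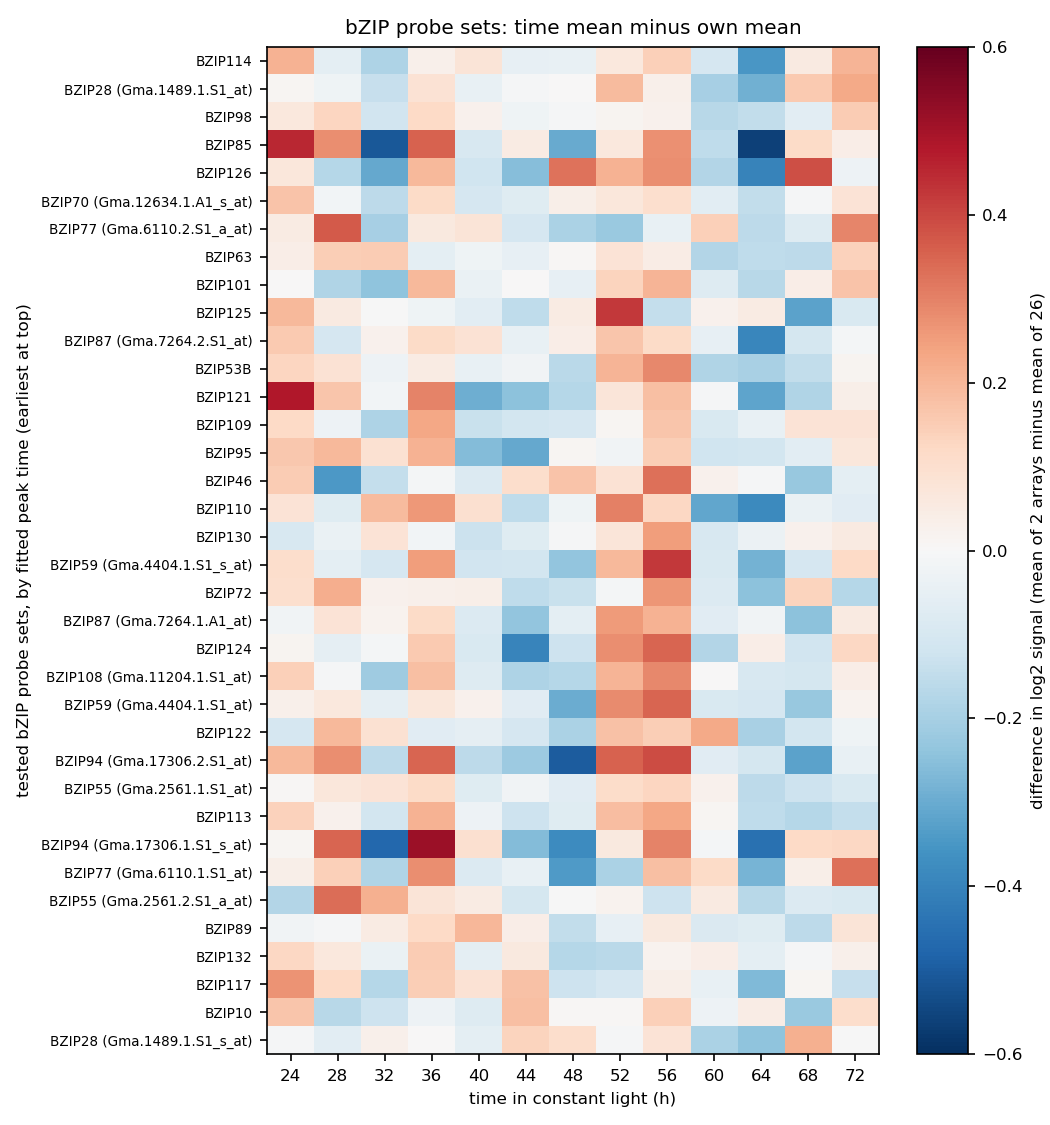
Time mean minus own mean (colour, in log2 signal; mean of 2 arrays minus mean of 26) for each of the 36 tested bZIP probe sets (rows, ordered by fitted peak time) at 13 times in constant light (columns, in h). The columns at 24, 36, 52 and 56 h are mostly red and those at 44, 48 and 64 h mostly blue, and BZIP85, BZIP94 and BZIP121 reach the deepest colours.

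At several times most members lay on the same side of their own mean. At 56 h, 33 of the 36 members (91.7%) had a time mean above their own mean over all arrays, beside 65.8% of all tested probe sets. At 24 h and at 36 h there were 30 each (83.3%), beside 63.7% and 66.3% of all. At 52 h there were 28 (77.8%), beside 64.2% of all. At 64 h only 3 members (8.33%) were above their own mean, beside 30.2% of all, and at 44 h there were 8 (22.2%), beside 48.4% of all. The sizes were small. The median deviation of the members was 0.16 log2 at 56 h and -0.16 at 64 h, beside 0.06 and -0.08 over all tested probe sets. The times with many members above their mean were not the same in both cycles. At 32 h, 24 h before 56 h, there were 12 (33.3%), near the 39.0% of all. At 72 h the members, at 63.9%, were close to the 66.1% of all.

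**Figure D2:**
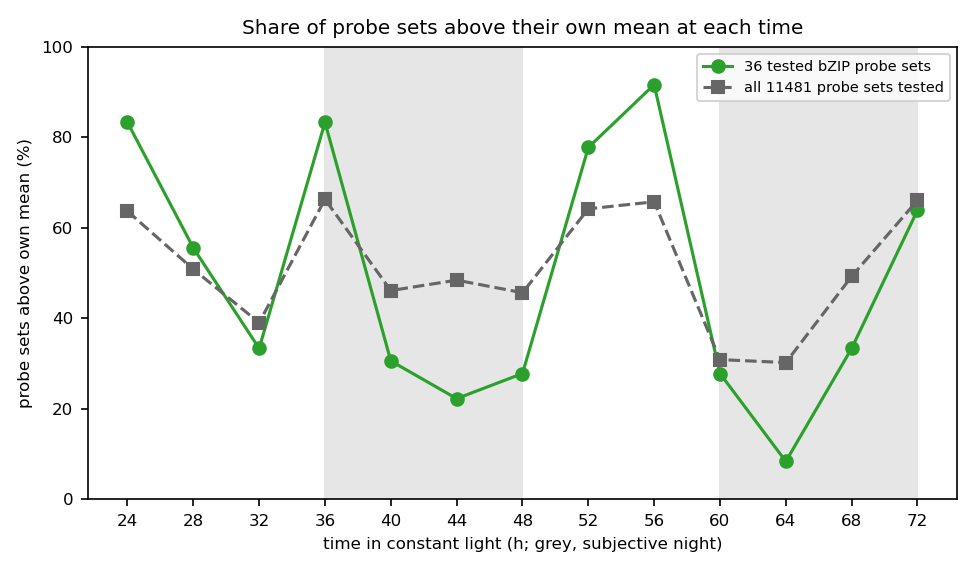
Percent of probe sets whose time mean is above their own mean (vertical axis) against time in constant light in h, for the 36 tested bZIP probe sets (circles) and all 11481 tested probe sets (squares), with subjective night in grey. The bZIP line runs from 8.33% at 64 h to 91.7% at 56 h and moves in the same direction as that of all probe sets over most intervals.

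The study's title poses the question of clock control, here whether any bZIP transcript followed a 24 h rhythm. With cosine and sine terms of 24 h fitted beside linear time, limma called 0 of the 36 members at an adjusted p under 0.05, beside 1.2% of all tested probe sets. At an unadjusted p under 0.05 there were 6 members, beside 10.3% of all. These 6 were BZIP95, BZIP122, BZIP63, BZIP124 and 1 of the 2 probe sets each of BZIP87 and BZIP55. The fitted amplitude, which is the distance from the mean to the peak, had a median of 0.11 log2 over members and 0.08 over all tested probe sets. The largest among members was 0.24 ± 0.11 (SE) for one probe set of BZIP94, a 1.40-fold change from trough to peak.

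BZIP95 had the smallest p of the rhythm test. At the subjective midday times its arrays read 8.03 and 7.90 at 32 h and 7.99 and 8.06 at 56 h. In the late subjective night they read 7.54 and 7.60 at 44 h and 7.73 and 7.89 at 68 h. The 4 night arrays were all below the 4 midday arrays, though 68h replicate 2 came close to the lowest midday array. Its lowest times were 40 h, with 7.70 and 7.54, and 44 h. In the second cycle the replicates spread more, with 7.97 and 7.55 at 64 h. The fitted amplitude was 0.16 ± 0.05 (SE) log2, and the fitted peak fell 5.59 h after dawn (limma adjusted p = 0.287). Over 41 alternatives for this test, the smallest adjusted p of any member ranged from 0.114 to 0.771.

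The next members had their fitted peaks in the same part of the day and amplitudes of like size. BZIP87, through 1 of its 2 probe sets, had an amplitude of 0.18 ± 0.06 (SE) and peaked at 6.65 h (limma adjusted p = 0.314). Its late night arrays read 8.24, 8.29, 8.04 and 8.47 and its midday arrays 8.49, 8.57, 8.74 and 8.69, and the 2 groups did not overlap. BZIP55 ran from 8.54 to 8.96 on all arrays, with an amplitude of 0.11 ± 0.03 (SE), and peaked at 7.41 h (limma adjusted p = 0.306). BZIP122 had 0.17 ± 0.06 (SE) with a peak at 7.26 h, BZIP63 0.12 ± 0.04 (SE) with a peak at 4 h, and BZIP124 0.20 ± 0.07 (SE) with a peak at 6.71 h. At 40 h the replicates of BZIP122 read 7.82 and 7.11, a wider gap than between its extreme time means of 7.32 and 7.74. At 56 h those of BZIP63 read 8.84 and 8.24.

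**Figure D3:**
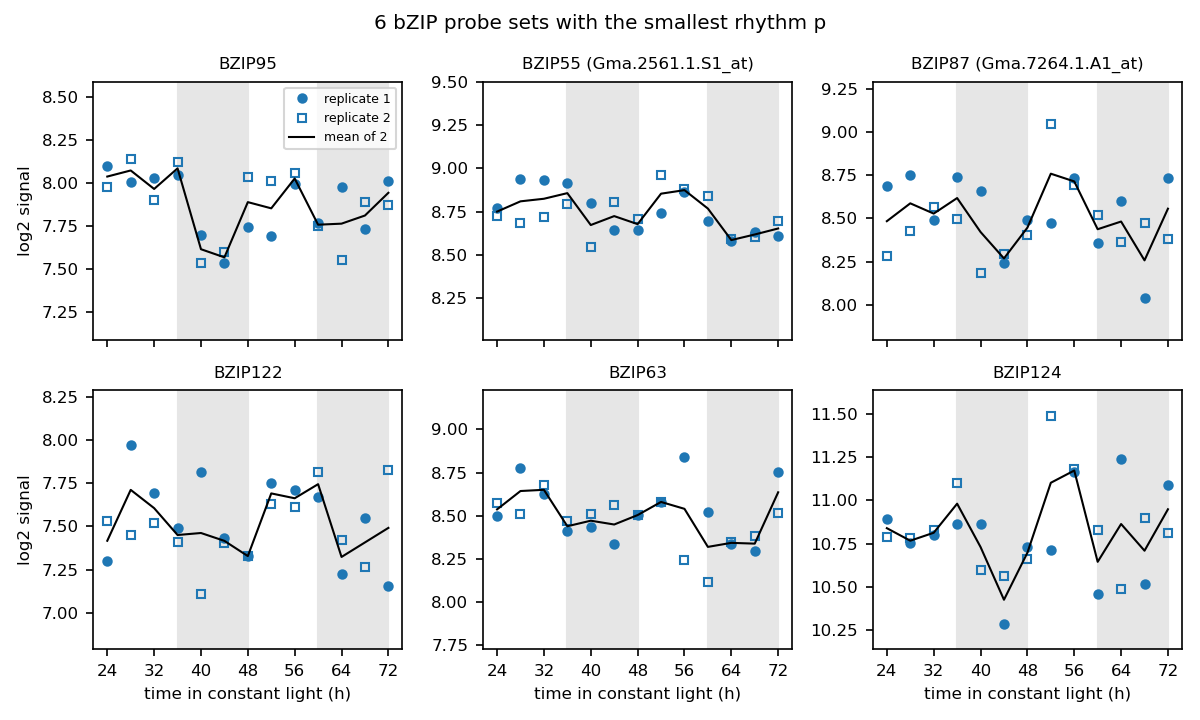
Log2 signal (vertical axes, each spanning the same width) of the 6 bZIP probe sets with the smallest p of the 24 h fit against time in constant light in h, with replicate 1 as filled circles, replicate 2 as open squares, the mean of 2 as a line and subjective night in grey. BZIP95 falls from 8.08 at 36 h to 7.57 at 44 h in both replicates, and the replicates of BZIP122 lie far apart at 40 h and 72 h.

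Fitted peaks of the members lay mostly in the subjective day, whatever the size of the rhythm. The 6 h around subjective midday, from 3 to 9 h after dawn, held 25 of 36 peaks, beside 43.9% of all tested probe sets. The 6 h around dawn, from 21 to 3 h, held 8, beside 26.5% of all. The 6 h around dusk, from 9 to 15 h, held 2, namely BZIP89 and BZIP132, beside 9.35% of all. The 6 h around midnight, from 15 to 21 h, held only BZIP117, beside 20.3% of all. Counting each gene once, by its probe set of highest mean, 20 of 30 peaks lay around midday. With each array centred on its median the count was 20 of 36 probe sets beside 31% of all, and with quantile normalization 20 of 36 beside 34.6%. None of these peaks belongs to a rhythm that passed the test, and members share the same arrays, so the counts are descriptions.

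**Figure D4:**
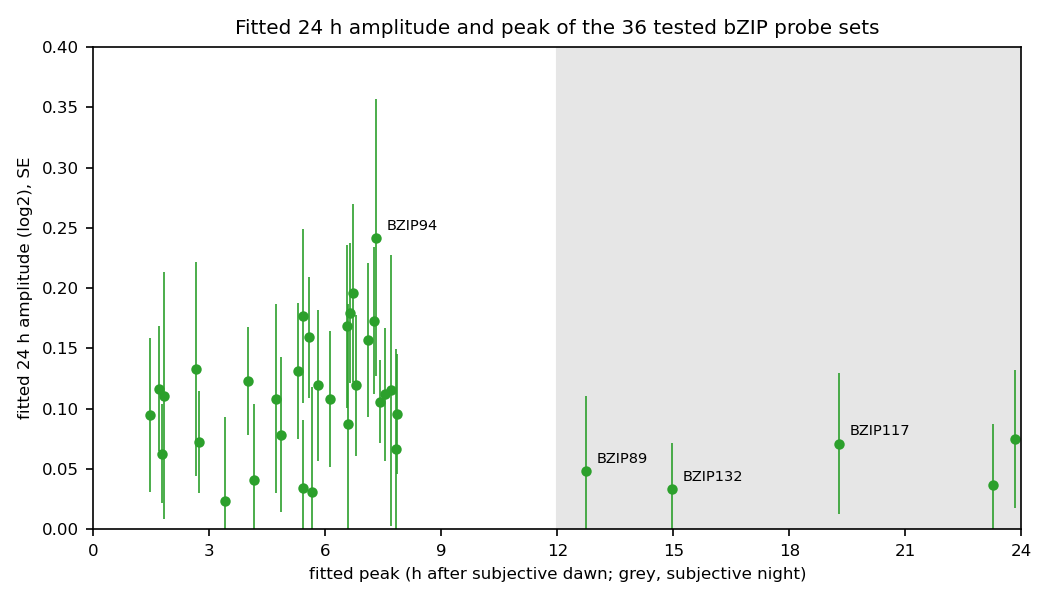
Fitted 24 h amplitude in log2 with its SE (vertical axis) against the fitted peak in h after subjective dawn (horizontal axis) for the 36 tested bZIP probe sets, with subjective night in grey. Of the points, 25 lie between 3 and 9 h, and those of BZIP89, BZIP132, BZIP117, BZIP10 and one probe set of BZIP28 lie in the subjective night with amplitudes under 0.08.

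The late subjective night (44 and 68 h) was then compared with subjective midday (32 and 56 h), 4 arrays against 4. A limma contrast in a fit of the 13 times called 0 of 36 members, beside 0.54% of all tested probe sets. At an unadjusted p under 0.05 there were 4, all of them lower in the night, beside 3.11% of all that were lower at this level. For BZIP124 the mean was 10.57 ± 0.25 (SD, n = 4) at night against 10.99 ± 0.21 (SD, n = 4) by day, and the difference was -0.43 ± 0.17 (SE; limma adjusted p = 0.490). Its night arrays read 10.29, 10.56, 10.52 and 10.90 and its midday arrays 10.80, 10.83, 11.16 and 11.18, and the groups overlapped. BZIP87, through 1 of its 2 probe sets, had a difference of -0.36 ± 0.15 (SE; limma adjusted p = 0.526). Its other probe set had -0.14 ± 0.16 (SE; limma adjusted p = 0.947), with overlapping groups. BZIP95 had a difference of -0.31 ± 0.11 (SE; limma adjusted p = 0.352). For BZIP110, which raised salt tolerance in Arabidopsis, it was -0.25 ± 0.12 (SE; limma adjusted p = 0.615).

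The intervals of these differences, each taken singly and not adjusted for the 36 members, bound the change between late night and midday. They do not bound a rhythm that peaks at other times of day. Over the 36 members, no 95% interval reached 1 log2, and the outermost bound was a 1.97-fold change, for BZIP94. For 21 members the interval stayed within 0.5 log2. That of BZIP132 ran from -0.16 to 0.23 and that of BZIP98 from -0.23 to 0.23. Of the 36 differences, 26 were below 0, with a median of -0.15 log2, beside 52.8% and a median of -0.01 over all tested probe sets. With arrays centred on their medians 23 were below 0, beside 51.4% of all, and with quantile normalization 27, beside 53.5%. The 4 late night arrays were all below the 4 midday arrays for 2 members, beside 2.06% of all tested probe sets, and all above for 0, beside 2.37%. The 2 were BZIP95 and 1 of the 2 probe sets of BZIP87. In both the gap was narrow, with 7.89 against 7.90 for BZIP95 and 8.47 against 8.49 for BZIP87.

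**Figure D5:**
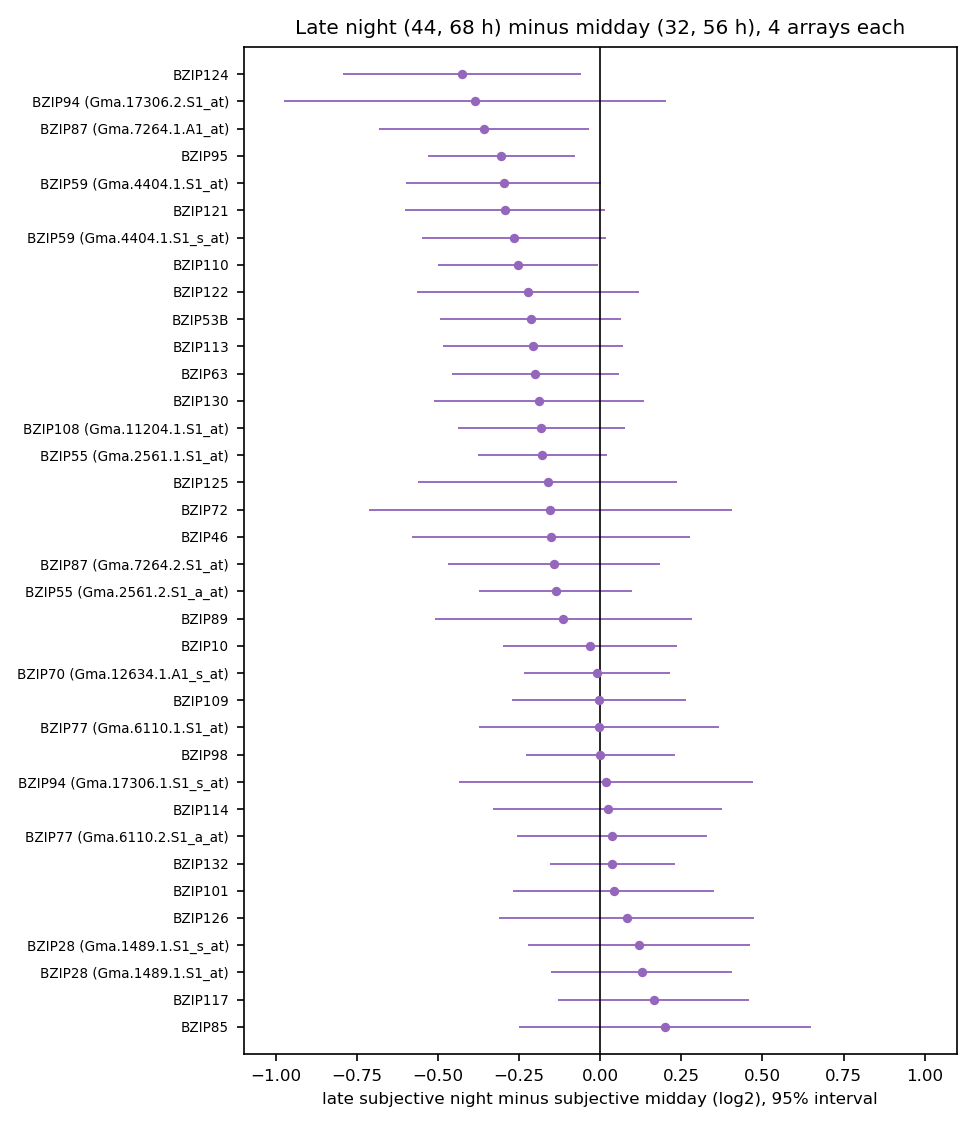
Difference in log2 signal between late subjective night and subjective midday (points) with its 95% interval (lines) for each of the 36 tested bZIP probe sets, ordered by size. The points run from -0.43 for BZIP124 to 0.20 for BZIP85, 26 lie below 0, and the lines of 4 members exclude 0.

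With 4 times on either side, the contrast became more precise and 1 member passed. Here 40, 44, 64 and 68 h were set against 28, 32, 52 and 56 h, 8 arrays against 8. BZIP95 averaged 7.69 ± 0.17 (SD, n = 8) in the night and 7.98 ± 0.13 (SD, n = 8) in the day, a difference of -0.29 ± 0.08 (SE; limma adjusted p = 0.0435). This was 1 of 36 members, beside 3.68% of all tested probe sets, 422 in number, so that the share is near the background. The call was lost with arrays centred on their medians (limma adjusted p = 0.0664). It held with quantile normalization (limma adjusted p = 0.0468) and with the array floor as a block (limma adjusted p = 0.0282). It also held with the replicate number as a block (limma adjusted p = 0.0498). With the 26 arrays left out in turn it held in 7 cases, with limma adjusted p from 0.0183 without 64h replicate 1 to 0.112 without 32h replicate 1. Other members passed in some of these fits: BZIP121 without 44h replicate 1 and without 64h replicate 1, and BZIP110 and BZIP63 without 56h replicate 2. These repeats were chosen after the result was seen. Next in order were BZIP121 with -0.36 ± 0.10 (SE; limma adjusted p = 0.0648) and BZIP110 with -0.26 ± 0.08 (SE; limma adjusted p = 0.101). Of all members 32 of 36 were lower in the night, beside 63.4% of all tested probe sets. At an unadjusted p under 0.05, 15 members were lower in the night, beside 11.5% of all, and 0 were higher, beside 6.41% of all. The 15 came from 13 genes, since both probe sets of BZIP55 and of BZIP59 were among them. With arrays centred on their medians 8 were lower at this level, beside 6.38% of all, and with quantile normalization 9, beside 8.84%. The count also depended on single arrays: it was 6 without 40h replicate 2 (beside 8.29%), 7 without 28h replicate 1 (beside 9.12%), 8 without 52h replicate 2 (beside 8.69%), 8 without 68h replicate 1 (beside 9.86%) and 9 without 32h replicate 2 (beside 9.55%).

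With no assumed shape, the limma test over the 13 times called 0 of 36 members, beside 0.0436% of all tested probe sets, and 3 members had an unadjusted p under 0.05, beside 7.49%. BZIP110 came first (limma adjusted p = 0.474), followed by BZIP121 (limma adjusted p = 0.561), BZIP95 and one probe set of BZIP59. BZIP110 had its highest replicate pairs at 36 h, with 6.08 and 6.37, and at 52 h, with 6.14 and 6.39. Its lowest were at 60 h, with 5.56 and 5.76, and at 64 h, with 5.48 and 5.69. BZIP121 fell from 5.52 and 5.24 at 24 h to 4.64 and 4.57 at 40 h, and had 4.92 and 4.25 at 64 h.

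The 2 cycles were compared by the interaction of the 24 h terms with the cycle, over the 24 arrays from 24 to 68 h. This limma test called 0 of 36 members, beside 0% of all tested probe sets, and 1 member, BZIP110, had an unadjusted p under 0.05, beside 9.42% of all. In BZIP110 the late night time means were 5.82 at 44 h and 5.93 at 68 h, but at 60 h, subjective dusk, it stood at 5.66 where it had stood at 6.23 at 36 h (limma adjusted p = 0.257). BZIP10, one probe set of BZIP87 and BZIP46 followed, with limma adjusted p of 0.544, 0.581 and 0.592.

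Over the 48 h as a whole, no member drifted enough to pass. For linear time, limma called 0 of 36, beside 0% of all, and 1 member had an unadjusted p under 0.05, beside 5.33%. That was BZIP117, which read 6.41 and 6.01 at 24 h and 5.97 and 5.63 at 72 h, a fitted change of -0.33 ± 0.13 (SE) from 24 to 72 h (limma adjusted p = 0.824). The change of BZIP117 was -0.64 within the low floor arrays alone and -0.03 within the high floor arrays alone, fits added after the data were seen. The next were one probe set of BZIP55 at -0.16 ± 0.11 (SE), BZIP121 at -0.23 ± 0.16 (SE) and BZIP110 at -0.20 ± 0.14 (SE). Single arrays moved these values: that of BZIP55 was -0.25 without 24h replicate 1 and -0.11 without 28h replicate 1, and that of BZIP121 was -0.09 without 24h replicate 1. Of the 36 fitted changes 20 were below 0, beside 51.7% of all.

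Genes with more than 1 probe set allowed a comparison on the same arrays, which is not an independent check. The IDs of the 2 probe sets of BZIP59 differ only in their suffix, as do those of BZIP28. Both tested probe sets of BZIP59 had like fits, with amplitudes of 0.17 ± 0.07 (SE) and 0.16 ± 0.06 (SE) and peaks at 6.56 and 7.11 h, and both were highest at 56 h. Those of BZIP55 also peaked close together, at 7.41 and 7.85 h, with 0.11 ± 0.03 (SE) and 0.10 ± 0.05 (SE). Those of BZIP87 peaked at 6.65 and 4.85 h, but the second had an amplitude of 0.08 ± 0.06 (SE) beside 0.18 for the first. Those of BZIP94 had 0.24 ± 0.11 (SE) and 0.12 ± 0.11 (SE), with peaks at 7.32 and 7.70 h. Their late night minus midday differences lay apart, at -0.39 ± 0.28 (SE) and 0.02 ± 0.21 (SE), which their errors do not separate. Those of BZIP28 peaked near dawn, at 1.71 and 23.8 h, and those of BZIP77 had amplitudes of 0.07 ± 0.08 (SE) and 0.02 ± 0.07 (SE). BZIP108 and BZIP109 share a probe cluster, that is, the first number of their IDs, and their probe sets had amplitudes of 0.12 ± 0.06 (SE) and 0.03 ± 0.06 (SE).

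The replicates of a time can also differ in seed maturity. A maturation level was taken as the mean, over 34 probe sets of maturation proteins, of log2 values centred per probe set. It ran from -0.56 on 52h replicate 2 to 0.54 on 28h replicate 1, and the replicates of 68 h stood at 0.51 and -0.18. A limma fit of the slope on this level, with the 13 times as a factor, called 0 of 36 members, beside 1.61% of all tested probe sets. At an unadjusted p under 0.05 there were 6, all with a slope below 0, beside 17.4% of all. BZIP114 had the smallest p, with a slope of -0.73 ± 0.22 (SE) log2 per log2 (limma adjusted p = 0.0936). At 56 h, where its replicates lay furthest apart, BZIP114 read 8.14 in replicate 1 and 7.25 in replicate 2. The maturation level there was -0.39 and -0.11. At 68 h, with levels of 0.51 and -0.18, BZIP114 read 7.51 and 7.70. Its replicate difference had the opposite sign to that of the level at 10 of 13 times, a count from the same values as the slope. It includes 32 h, where both replicates had a level of 0.31. Of the 36 members, 7 had the opposite sign at 10 or more times, and the share over all probe sets was not counted. Next by p of the slope were BZIP89 with -0.72 ± 0.27 (SE), BZIP101 with -0.52 ± 0.22 (SE) and BZIP110 with -0.41 ± 0.17 (SE).

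The sign of these slopes depended on the scaling. As deposited, 32 of 36 slopes were below 0, beside 71% of all tested probe sets. With arrays centred on their medians, which shifted single arrays by up to 0.22 log2, 19 were below 0, beside 37.9% of all, and with quantile normalization 25, beside 49.6%. With centred arrays the slope of BZIP114 was -0.31 (limma adjusted p = 0.220), and 1 of 36 members passed with the opposite sign, beside 5.32% of all tested probe sets. It was a probe set of BZIP55, at 0.45 ± 0.12 (SE; limma adjusted p = 0.0437).

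Other genes of the pathway were few on the table under a name. The list of other bZIP factors held 4 probe sets of GBF2, SOYGBFA and STF2, G-box binding factors and a HY5 relative. Of these, 0 of the 4 lay above the filter, with means of 2.39 to 3.97. The probe set with the symbols BZIP36 and STF2 together was in no list and had a mean of 7.17. The list of abscisic acid signalling held SPK-1, SPK-2 and SPK-3, protein kinases, of which SPK-1 and SPK-3 were tested. None of the 2 passed any of the tests. Of the 34 maturation protein probe sets, 0 passed the rhythm test, the test over times, the trend, the cycle test or the contrast of late night with midday. Their median late night minus midday difference was -0.02 log2, beside -0.15 for the bZIP members. The slopes of 20 of them passed, all above 0, which follows in part from their use in the maturation level.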

How the data were processed

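Total RNA of 26 seed samples was labelled with biotin and hybridised to single-colour arrays, per the labels' protocols. The authors summarised the probes with GCRMA, per the submitters' processing notes, and deposited normalized values whose range fits a log2 scale. Its version and any filter were not stated. Weak signals lie near a floor that differed between arrays.

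Symbols came from the platform annotation, which names 1 gene for 5002 probe sets, leaves 11164 unnamed and joins several symbols on 217. The last were left out. Synonyms came from a RefSeq gene table, in which the gene ID of BZIP95 was not found.

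Probe sets with a mean log2 above 4 were fitted together with limma 3.58.1 in R 4.3.3 (lmFit, eBayes), with Benjamini-Hochberg adjustment over all 11481 at 0.05. The low floor and high floor arrays were split at the largest gap between lowest signals, a grouping that the labels do not give. The steps were tested on simulated data with independent noise. The planted changes were larger than the amplitudes, differences, trends and slopes fitted in the members. That run therefore does not measure the power to find changes of the sizes given here. Named members were those with the smallest p in each test (6 for the rhythm, 4 otherwise), the 4 strongest and 3 weakest, the 4 of largest SD, those next to the filter and genes with several probe sets. The members, lists and tests were chosen with earlier results of these data known. The labels do not say that replicate numbers pair the samples, and they were not used as a block in the main fits.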

Additional observations from a re-analysis of the deposited data

Results flagged for a closer look

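In groups of 4 arrays, an array was marked when its gap to the nearest other, divided by the range of the group, was above Dixon's critical value. Of 72 groups examined (36 members, late night and midday), 3 were marked, where chance marks about 1 in 20. BZIP125 read 10.71 at midday on 32h replicate 2, while the other 3 midday arrays lay between 10.41 and 10.43. BZIP114 read 7.70 in the late night on 68h replicate 2, with the others between 7.48 and 7.51, and BZIP130 read 5.35 on the same array, with the others between 5.15 and 5.16. No member's difference between cycles passed the test.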

How the results depend on the processing

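For all 6 tests the count of members called was 0 as analysed. With 1 choice changed at a time, it stayed 0 for the rhythm (41 alternatives), any difference between times (33), the trend (36) and the cycles (35), and with the arrays left out in turn it was 0 to 0 in each of the 6 tests. It became 1 in 2 cases: the contrast of late night with midday with 4 times on either side (BZIP95), and the maturation slope with arrays centred on their medians (BZIP55, beside 5.32% of the table). When the wider contrast was itself repeated under other settings, chosen after it was seen, 0 to 2 members and 209 to 570 probe sets of the table were called. In the table as a whole the rhythm count, 138, ranged from 0 at a period of 20 h to 258 without linear time, and from 72 to 199 with single arrays left out. That of late night against midday, 62, ranged from 5 to 422, that of any difference, 5, from 0 to 93, and that of the slope, 185, from 36 to 1612 without the time factor. Counts for the trend and the cycles, both 0, reached 3 and 55. Fits within the low floor or the high floor arrays alone were added after the data were seen. In them the rhythm count of members was 0, with 0 and 41 in the table, and the trend of BZIP121 reversed to 0.0815 within the high floor arrays (limma adjusted p = 0.871). The replicate number as a block gave 0 members in each test, with 144 rhythmic probe sets in the table. Replicate differences of 2 times correlated between -0.38 and 0.61 over 78 pairs of times, 34 of them over 0.1. Some pairs of times thus shared a difference between replicates, and whether the replicate numbers pair the samples was not tested. Replicate 1 was the low floor array at 11 of 13 times, so the number mostly goes with the array floor. Whether the floor of the arrays limited the changes of weak members was not tested.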

Other observations

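The clearest rhythm among probe sets with a BZIP symbol lay outside the members. It belonged to a probe set that carries 2 gene symbols, BZIP76 and SOYSTGA, and so is assigned to neither gene alone. Its log2 signal read 6.62 and 6.52 at 28 h, 6.43 and 6.42 at 36 h, then 5.57 and 5.63 at 40 h and 5.72 and 5.76 at 44 h. In the second cycle it read 6.26 and 6.72 at 56 h and 6.05 and 5.80 at 64 h. Both replicates fell between 36 and 40 h, by more than the gap between the replicates at any time. The fitted amplitude was 0.35 ± 0.06 (SE), or 1.62-fold between trough and peak, and the peak came at 6.57 h (limma adjusted p = 0.0124). This probe set was singled out after its values were seen. The call held without any single one of the 26 arrays, with adjusted p from 0.00489 to 0.0454.

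The call of this probe set was lost at periods of 20, 22 and 28 h (limma adjusted p = 0.442, 0.124 and 0.0790) and with 24 h and 12 h terms together (limma adjusted p = 0.0809). It was also lost within the low floor arrays (limma adjusted p = 0.958) and the high floor arrays (limma adjusted p = 0.128), fits added after the data were seen. Its 4 late night arrays averaged 5.96 ± 0.26 (SD, n = 4) and its midday arrays 6.41 ± 0.21 (SD, n = 4). The difference of -0.45 ± 0.11 (SE) did not pass (limma adjusted p = 0.0688). Another 3 probe sets carried a BZIP symbol beside a second symbol. One shared by 2 BZIP symbols, at a mean of 12.55, reached an amplitude of 0.14 ± 0.06 (SE) and a limma adjusted p of 0.487. The one of BZIP36 and STF2, at a mean of 7.17, reached 0.06 ± 0.05 (SE) and a limma adjusted p of 0.892. The last lay below the filter.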
